A study of Homo sapiens with 54 samples.

Results

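INHBA, FST, TGFB1, TGFB2, TGFBI, TGFBR2, SMAD3, SMAD7, BAMBI and THBS1 are 10 genes of activin and TGF-beta signalling among the 27470 genes in the deposited table. They were chosen by measured values: earlier results of these data were known when the list was drawn up, with the INHBA level of olaparib-resistant SUM1315 cells in particular. For that reason their values in resistant against olaparib-treated parental SUM1315 cells are given as a description without a test, as are their differences between lines in that comparison. The difference between the CDDP changes of OlaR and olaparib-treated parental SUM1315 cells contains the same comparison and is described in the same way for all 10 genes, as is the CDDP difference of INHBA within OlaR SUM1315 cells.

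RNA was measured in 54 libraries made from the 3′ ends of transcripts, 27 from SUM1315 (BRCA1 mutant) and 27 from MDA-MB-468 (BRCA1 wild type), both triple negative breast cancer lines grown in DMEM/F12 with 5% fetal bovine serum. The study asked how cells that had become resistant to olaparib, an inhibitor of PARP enzymes, respond to cisplatin (CDDP), a drug that crosslinks DNA. Each line had 9 conditions of 3 libraries: untreated parental cells, parental cells given olaparib, a lower or a higher CDDP dose or olaparib with either CDDP dose, and resistant (OlaR) cells kept in olaparib without CDDP or with either CDDP dose. Drugs were given overnight, and OlaR cells had been derived by raising the olaparib dose over months. In SUM1315 the doses were 8 µM olaparib for parental cells, 25 µM olaparib for OlaR cells, and 2 or 4 µM CDDP. In MDA-MB-468 they were 3 µM olaparib for parental cells, 15 µM for OlaR cells, and 1 or 2.5 µM CDDP. OlaR and parental cells therefore differed in olaparib dose and in time in the drug, and resistance and dose cannot be told apart. The labels do not say whether the 3 libraries of a condition came from separate cultures, so the p-values measure only the spread between libraries. The libraries were multiplexed in batches of 27, and which libraries shared a batch is not given.

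Activins and TGF-betas are secreted dimers that bind pairs of type II and type I receptor kinases, which phosphorylate SMAD proteins that enter the nucleus and regulate transcription. Follistatin traps activin outside the cell, BAMBI is a decoy receptor without a kinase domain, and SMAD7 is an inhibitory SMAD that the pathway itself induces. In breast cancer cells the pathway is known both for slowing proliferation and for inducing a mesenchymal state and matrix genes.

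Values are read counts that the authors brought to a common library size, called adjusted reads here. Because reads come from transcript ends, a level was compared between conditions and not between genes. Recovered whole reads summed to 4977284 to 7540920 in the 18 parental SUM1315 libraries and 3446613 to 4665505 in the 9 OlaR libraries. In MDA-MB-468 the sums were 5574767 to 9268162 in parental and 2070301 to 4676284 in OlaR libraries. Depth was thus lower in OlaR cells, and its part in the OlaR differences below was not tested. The spread between pairs of libraries of a condition was 1.59 to 20.58 times that of counting alone (median 3.19). In SUM1315, replicate 3 of untreated cells (13.86 and 18.38), the libraries with the lower CDDP dose (up to 20.58) and replicate 3 of olaparib-treated cells (8.27 and 8.26) stood apart most from their partners. Calls given below for single genes that rest on these untreated or olaparib-treated cells, apart from CDKN2B, are also given without that replicate. The lower CDDP dose was in no comparison, but its libraries entered the pooled spread of the fit.

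The lines matched their labels in part. MDA-MB-468 libraries had 9303 to 17657 adjusted reads of the epithelial keratin KRT19, 654 to 1045 of CDH1 and at most 53.8 of VIM. SUM1315 libraries had 7929 to 13246 of VIM, with KRT8 and KRT18 present and KRT19, EPCAM and CDH1 at 4.61 or less. PGR was at 3.09 or less in both lines. ESR1 was at 25.6 or less in SUM1315, whereas in MDA-MB-468 its median was 44.4 in parental and 167 in OlaR libraries.

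INHBA encodes the subunit whose homodimer is activin A, and it lies on the minus strand of chr7:41667168-41705834 (hg38, GENCODE v44), with 3 exons in its canonical transcript. In untreated SUM1315 cells it had 239, 288 and 217 adjusted reads, and in olaparib-treated parental cells 54.2, 59.1 and 43. OlaR cells had 1359, 1321 and 1346, above every parental library of the line. The recovered reads behind these values were 43 to 69 in olaparib-treated parental and 761 to 873 in OlaR libraries.

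CDDP moved INHBA upwards in parental SUM1315 cells. The lower dose gave 326, 315 and 335 adjusted reads and the higher dose 790, 691 and 690. With olaparib the values were 97, 85.4 and 88.5 at the lower CDDP dose and 217, 278 and 269 at the higher dose, which overlapped untreated cells. OlaR cells had 1590, 1887 and 1517 with the lower dose and 1766, 1672 and 1578 with the higher dose, so these groups overlapped each other and lay above OlaR cells without CDDP. From lowest to highest, the condition means ran from 52.1 with olaparib through 90.3 with olaparib and the lower CDDP dose, 248 untreated, 255 with olaparib and the higher CDDP dose, 325 and 724 with CDDP alone, and 1342 in OlaR cells, to 1665 and 1672 in OlaR cells with CDDP. Neighbours in this order overlapped at 248 and 255 and at 1665 and 1672, and the highest mean was 32.1 times the lowest.

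**Figure D1:**
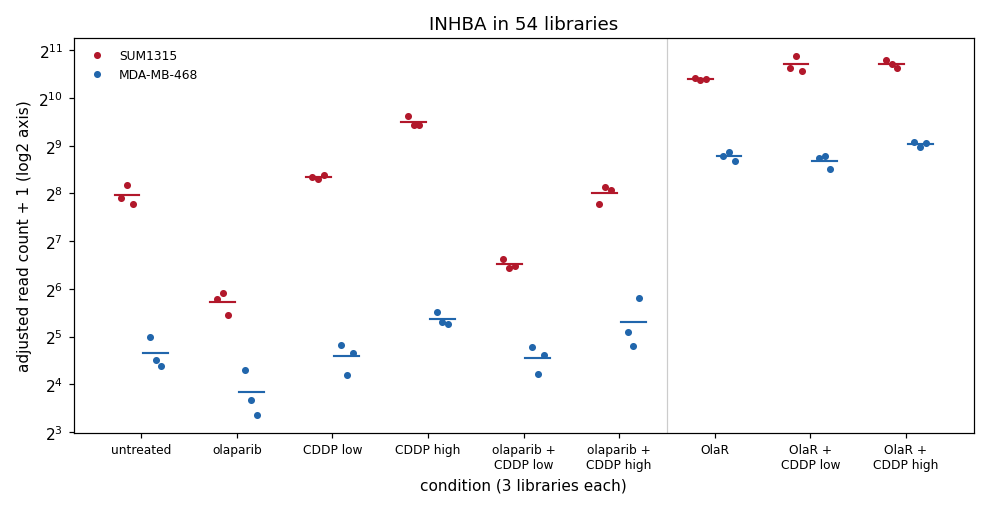
INHBA in each of the 54 libraries, as adjusted read count plus 1 on a log2 axis. Each condition has 3 libraries (points) and their arithmetic mean (bar), with both lines in each column. OlaR libraries, right of the grey line, sit above all parental libraries of their line, and in SUM1315 the olaparib-treated libraries are lowest (43 to 59.1).

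The tests used limma on log2 values across all genes, with genes said to rise or fall at an adjusted p of at most 0.05 and a change of at least 2-fold. Olaparib lowered INHBA in parental SUM1315 cells, which fell by 2.23 on the log2 scale (SE 0.12, n = 3 per group, adjusted p = 1.29e-15). Without replicate 3 of the untreated cells the difference was -2.32, and without replicate 3 of the olaparib-treated cells -2.1. The higher CDDP dose raised it by 1.55 (SE 0.12, adjusted p = 4.49e-12, or 1.46 without that replicate), and adding the same dose to olaparib raised it by 2.27 (SE 0.12, adjusted p = 4.17e-15, or 2.14 without olaparib replicate 3). Adding olaparib to CDDP lowered it, with a difference of -1.51 (SE 0.12, adjusted p = 1.73e-10). In each of these 4 comparisons the groups did not overlap. Comparisons here share control libraries: the olaparib group serves olaparib alone, CDDP added to olaparib and OlaR cells, so their signs are not independent. INHBA was chosen with its level in OlaR cells known, and the OlaR comparison uses the same olaparib-treated libraries. The INHBA tests of olaparib alone and of CDDP added to olaparib therefore give no independent support. The same holds for these tests of the other chosen genes in SUM1315 below.

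OlaR SUM1315 cells had 25.5-fold more INHBA than olaparib-treated parental cells, a log2 difference of 4.67 (SE 0.12, not tested because the gene was chosen for it). The higher CDDP dose gave INHBA in OlaR cells a log2 difference of 0.32 (SE 0.12), with groups that did not overlap. This value minus the CDDP difference of olaparib-treated parental cells was -1.96 (SE 0.17, or -1.83 without olaparib replicate 3). Both are descriptions, since the OlaR values chose the gene.

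In MDA-MB-468, INHBA was low in parental cells, with 30.8, 21.8 and 20 adjusted reads untreated and 18.8, 11.7 and 9.3 with olaparib. OlaR cells had a mean of 439 (SD 28.9, n = 3, lowest 410), and all 3 libraries lay above all parental libraries, of which the highest was 55.4. The increase was 32-fold, or 5 on the log2 scale (SE 0.23, n = 3 per group, adjusted p = 5.82e-25), from 12 to 30 recovered reads to 338 to 382. The gene was chosen with earlier results of these data known, so this test gives no independent support.

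The higher CDDP dose gave 44.4, 38.5 and 37.5 adjusted reads of INHBA alone and 33.4, 26.8 and 55.4 with olaparib in MDA-MB-468. Added to olaparib it raised INHBA by 1.46 (SE 0.23, adjusted p = 1.32e-06). Olaparib alone gave -0.85 (adjusted p = 0.00424) and CDDP alone 0.73 (adjusted p = 0.0134), both with groups that did not overlap but changes under 2-fold. In OlaR cells the higher dose gave 537, 498 and 528, a log2 difference of 0.25 (SE 0.23, adjusted p = 0.512). The CDDP change of OlaR cells differed from that of olaparib-treated parental cells by -1.21 (SE 0.32, adjusted p = 0.00598). This difference contains the same OlaR and olaparib-treated libraries as the OlaR comparison, so its test gives no independent support either. Condition means ran from 13.3 with olaparib to 521 in OlaR cells with the higher CDDP dose, a ratio of 39.2. The 6 parental conditions overlapped their neighbours in this order, and the lower CDDP dose in OlaR cells (428, 440 and 362) overlapped OlaR cells without CDDP.

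TGFB2 encodes a TGF-beta ligand and lies on the plus strand of chr1:218345336-218444619. In SUM1315 it had 121, 144 and 106 adjusted reads untreated, 45.6, 58.2 and 55 with olaparib and 143, 133 and 108 in OlaR cells. Olaparib-treated cells were below both other groups, and OlaR cells overlapped untreated cells. TGFB2 fell by 1.2 with olaparib (log2, SE 0.19, adjusted p = 7.55e-06, -1.31 without untreated replicate 3 and -1.23 without olaparib replicate 3), and OlaR cells were 2.39-fold above olaparib-treated parental cells (log2 difference 1.26, SE 0.19, not tested). CDDP added to olaparib gave 69.5, 93.5 and 67.3, a log2 difference of 0.52 that missed the threshold (adjusted p = 0.0894).

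TGFB2 in MDA-MB-468 had 149, 160 and 126 adjusted reads untreated, 88.2, 94.7 and 91.8 with olaparib, and 246, 269 and 257 with olaparib and the higher CDDP dose. Adding CDDP to olaparib raised it by 1.48 (log2, SE 0.14, adjusted p = 1.2e-12), with no overlap. The olaparib difference of -0.65 (adjusted p = 0.000234) and the CDDP difference of 0.57 (adjusted p = 0.00126) were under 2-fold. OlaR cells had 181, 203 and 167, a log2 difference of 0.99 from olaparib-treated parental cells (SE 0.14, adjusted p = 1.84e-08), just under the 2-fold limit. With the higher CDDP dose OlaR cells had 190, 203 and 254, which overlapped OlaR cells without it, and the difference between the CDDP changes was -1.25 (SE 0.19, adjusted p = 2.87e-06).

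TGFB1, the most widely studied TGF-beta ligand (minus strand of chr19:41301587-41353922), varied little in SUM1315. Its lowest condition mean was 127 with the lower CDDP dose and its highest 267 with olaparib and that dose, a ratio of 2.1, and no tested comparison passed. OlaR cells had 248, 230 and 240 adjusted reads against 154, 171 and 183 in olaparib-treated parental cells, a log2 difference of 0.5 (not tested). In MDA-MB-468 it was scarce, with 2.04, 11.2 and 8.15 in olaparib-treated parental cells and 11.4, 16.4 and 36.3 in OlaR cells. It rose by 1.52 there (log2, SE 0.56, adjusted p = 0.0199), on 5 to 15 and 9 to 31 recovered reads. This call was lost without replicate 1 of the olaparib-treated cells (0.92) or replicate 3 of the OlaR cells (1.08), and without the filter on low values. OlaR cells with CDDP had 24.4 to 37.9 at the lower dose and 26.3 to 42.8 at the higher dose, and TGFB1 reached 10 adjusted reads in 16 of the 27 libraries.

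TGFBR2 encodes the type II receptor that binds TGF-beta (plus strand of chr3:30606601-30694142). SUM1315 cells had 1055, 1149 and 792 adjusted reads of it untreated, 999, 1109 and 1082 with olaparib, and 689, 679 and 745 in OlaR cells. OlaR libraries lay below all parental libraries, with a log2 difference of -0.59 from olaparib-treated cells (SE 0.11, not tested). The higher CDDP dose gave 580, 491 and 440 in OlaR cells, a log2 difference of -0.49 (SE 0.11, adjusted p = 0.00297) under the 2-fold limit. The lower dose had a mean of 569 and overlapped the higher dose.

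TGFBR2 differed the other way between OlaR and parental MDA-MB-468 cells. OlaR cells had 252, 248 and 247 adjusted reads and olaparib-treated parental cells 178, 160 and 130, without overlap. The log2 difference was 0.69 (SE 0.12, adjusted p = 6.96e-06), under 2-fold. The difference between lines in this OlaR change, -1.28 on the log2 scale (SE 0.16), was not tested. CDDP in OlaR cells gave -0.39 (SE 0.12, adjusted p = 0.0197), a decrease under 2-fold as in SUM1315.

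SMAD3 is a receptor-activated SMAD and lies on the plus strand of chr15:67063763-67195173. Its condition means in SUM1315 ran from 581 untreated to 822 with the higher CDDP dose, a ratio of 1.42, and neighbours in the order overlapped throughout. CDDP alone gave 781, 855 and 831 adjusted reads against 506, 558 and 679, a log2 difference of 0.51 (SE 0.1, adjusted p = 9.53e-05) under 2-fold. OlaR and olaparib-treated parental cells overlapped (672 and 664 as means). In MDA-MB-468 the means ran from 141 untreated to 202 in OlaR cells, a ratio of 1.44. OlaR cells had a log2 difference of 0.44 from olaparib-treated cells (SE 0.14, adjusted p = 0.00622), again under 2-fold.

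FST encodes follistatin, the antagonist that binds activin (plus strand of chr5:53480626-53487134). In SUM1315 it had 23.2, 46.3 and 13.6 adjusted reads untreated, 1.8, 3.35 and 7 with olaparib, and 25.8, 18.4 and 22.4 in OlaR cells. Olaparib-treated cells were below both groups. FST fell by 2.47 with olaparib (log2, SE 0.49, adjusted p = 0.000163, -2.88 without untreated replicate 3 and -2.87 without olaparib replicate 3), on 2 to 7 recovered reads in the treated libraries. OlaR cells were 4.99-fold above olaparib-treated cells (log2 difference 2.32, SE 0.49, not tested). The higher CDDP dose gave 57.8, 44.1 and 46 in OlaR cells, where the groups did not overlap but the log2 difference of 1.12 missed the threshold (SE 0.49, adjusted p = 0.119). With olaparib and the higher CDDP dose the values spread from 4.16 to 29.8. In MDA-MB-468 FST did not pass the filter of 10 adjusted reads in 3 libraries: no library had more than 2 reads, and it was not detectable at this depth in untreated, olaparib-treated or higher-dose CDDP cells.

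BAMBI encodes the decoy receptor (plus strand of chr10:28677510-28682932). Untreated SUM1315 cells had 25.3, 26.8 and 13.6 adjusted reads of it and olaparib-treated cells 6.49, 6.72 and 11, and BAMBI fell by 1.31 (log2, SE 0.42, adjusted p = 0.0151, -1.61 without untreated replicate 3 and -1.53 without olaparib replicate 3). Olaparib with the higher CDDP dose gave 20.8, 28.6 and 16.9, a rise of 1.35 over olaparib (SE 0.42, adjusted p = 0.0423, 1.57 without olaparib replicate 3). Both calls rest on few reads, 7 to 11 in the olaparib-treated libraries. The olaparib call was lost without olaparib replicate 1 (-1.19) or 2 (-1.22) and without untreated replicate 1 (-1.19) or 2 (-1.14). The CDDP call was lost without olaparib replicate 1 (1.23) or 2 (1.25) and without replicate 1 (1.38), 2 (1.16) or 3 (1.52) of the combination. It was also lost with limma-voom on recovered reads (1.43), without the filter, in a fit of only the groups compared and with the replicate number as a block. OlaR cells had 34.4, 24.9 and 21.9, which overlapped untreated cells and lay 3.11-fold above olaparib-treated cells (not tested).

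In MDA-MB-468 BAMBI was lower in OlaR than in parental cells. OlaR cells had 118, 122 and 127 adjusted reads, below the olaparib-treated parental values of 260, 243 and 169, a log2 difference of -0.84 (SE 0.14, adjusted p = 8.14e-07) under 2-fold. Untreated cells had 304, 310 and 341. The OlaR conditions with CDDP had 107 to 154 and lay below all parental libraries. The difference between lines in the OlaR change was 2.48 on the log2 scale (SE 0.43, not tested).

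SMAD7, the inhibitory SMAD (minus strand of chr18:48919853-48950965), gave no call in either line. In SUM1315 it had 40.1, 58.9 and 53.8 adjusted reads untreated, 31.8, 44.2 and 18 with olaparib and 34.4, 33.6 and 64.7 in OlaR cells, and all neighbouring conditions overlapped. Its log2 difference with olaparib was -0.75 (SE 0.4, adjusted p = 0.143). In MDA-MB-468 condition means were 5.73 to 14.3 and 11 of the 27 libraries reached 10 adjusted reads, with 2 to 31 recovered reads a library.

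THBS1 encodes thrombospondin 1, a matrix protein that activates latent TGF-beta and is itself a target of the pathway (plus strand of chr15:39581079-39599466). Untreated SUM1315 cells had 539, 540 and 425 adjusted reads, against 99.5, 141 and 159 with olaparib and 715, 812 and 685 in OlaR cells. These groups were all apart. THBS1 fell by 1.92 with olaparib (log2, SE 0.14, adjusted p = 6.57e-13, -2.04 without untreated replicate 3 and -2.06 without olaparib replicate 3), and OlaR cells were 5.6-fold above olaparib-treated parental cells (log2 difference 2.48, SE 0.14, not tested).

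CDDP added to olaparib gave 227, 222 and 234 adjusted reads of THBS1, a log2 difference of 0.8 in SUM1315 (SE 0.14, adjusted p = 0.000208) under 2-fold. CDDP alone went the other way, with means of 396 against 501 untreated and overlapping groups. Its log2 difference was -0.33 (SE 0.14, adjusted p = 0.0473), also under 2-fold. OlaR cells with the higher dose had 664, 758 and 783, which overlapped OlaR cells without CDDP. The CDDP difference of OlaR cells minus that of olaparib-treated parental cells was -0.8 (SE 0.19, or -0.94 without olaparib replicate 3), a description as for INHBA.

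THBS1 in MDA-MB-468 also was lowest with olaparib, at 63.8, 55.7 and 45.3 adjusted reads against 131, 130 and 138 untreated. It fell by 1.28 (log2, SE 0.15, adjusted p = 1.2e-09). The higher CDDP dose added to olaparib gave 195, 217 and 233, a rise of 1.96 (SE 0.15, adjusted p = 1.21e-15) to values that overlapped CDDP alone (181, 174 and 201). OlaR cells had 93.8, 116 and 114, a log2 difference of 0.97 from olaparib-treated cells (SE 0.15, adjusted p = 1.61e-07), and with the higher CDDP dose 176, 220 and 231, a log2 difference of 0.94 (SE 0.15, adjusted p = 2.33e-06). Both were just under 2-fold. The difference between the CDDP changes was -1.02 (SE 0.21, adjusted p = 0.000307).

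TGFBI encodes a matrix protein named for its induction by TGF-beta (plus strand of chr5:136028988-136063818). In SUM1315 it had its highest mean untreated, with 3374, 3195 and 3402 adjusted reads, and had 2063, 2095 and 2188 with the higher CDDP dose, a log2 difference of -0.65 (SE 0.11, adjusted p = 1.38e-05) under 2-fold. OlaR cells had 2090, 2160 and 1885 against 2765, 2933 and 3580 in olaparib-treated parental cells, a log2 difference of -0.59 (SE 0.11, not tested). Both pairs of groups were apart.

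In MDA-MB-468 the signs for TGFBI were the other way for CDDP alone and for OlaR against olaparib-treated parental cells. Untreated cells had 170, 135 and 153 adjusted reads and cells with the higher CDDP dose 219, 255 and 277, a log2 difference of 0.71 (SE 0.12, adjusted p = 1.31e-05). OlaR cells had 228, 289 and 265 against 168, 160 and 180 in olaparib-treated parental cells, a log2 difference of 0.61 (SE 0.12, adjusted p = 3.56e-05). Neither pair overlapped, and both were under 2-fold. Olaparib added to CDDP gave 121, 148 and 110, a log2 difference of -0.99 (SE 0.12, adjusted p = 4.75e-08) just under 2-fold. These values also lay below olaparib alone, with a log2 difference of -0.43 for CDDP added to olaparib (SE 0.12, adjusted p = 0.00682). That sign was the same in SUM1315, where the groups overlapped (-0.18, SE 0.11, adjusted p = 0.365).

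**Figure D2:**
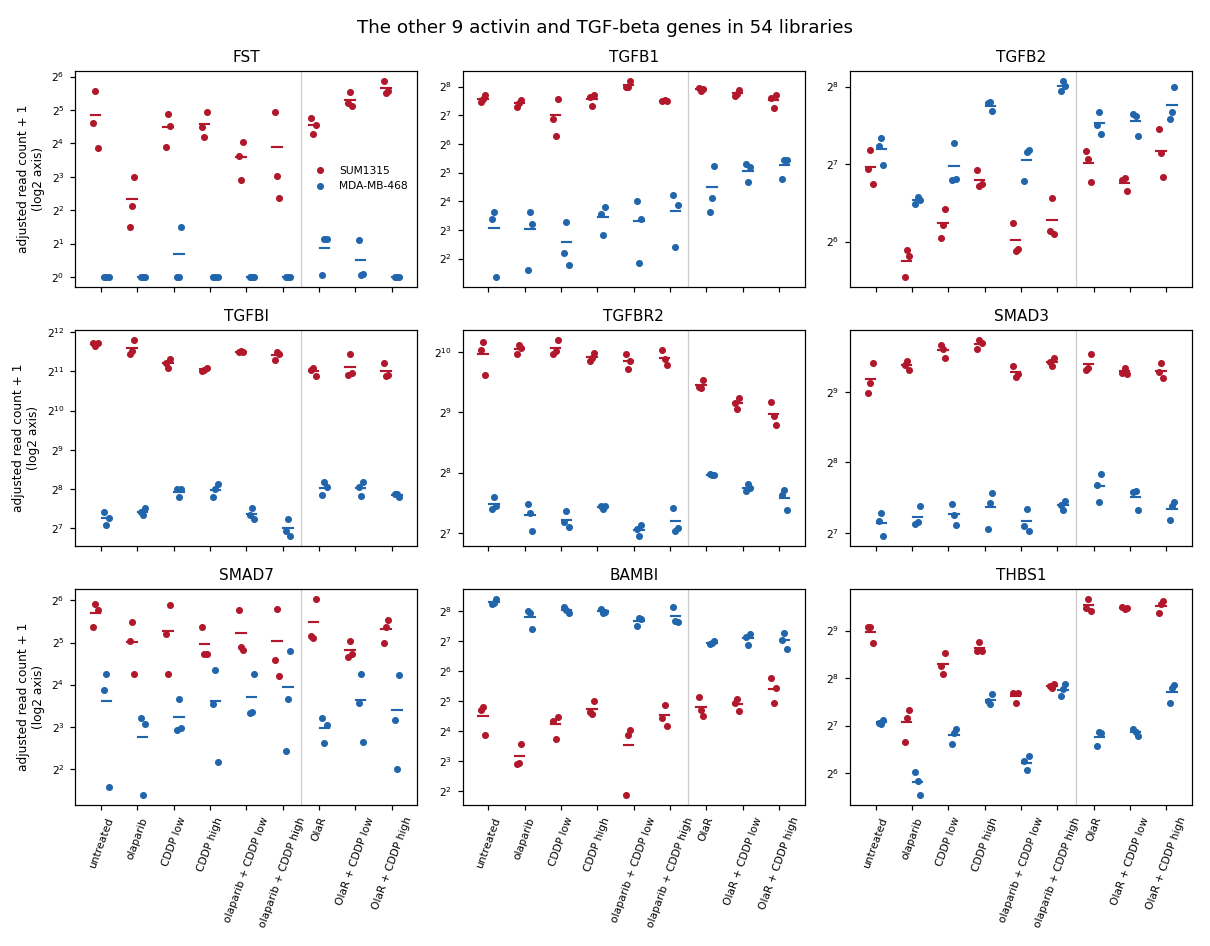
The other 9 genes in each library, as adjusted read count plus 1 on a log2 axis. Each condition has 3 libraries (points) and their arithmetic mean (bar). In SUM1315 olaparib-treated cells were lowest for FST, TGFB2, BAMBI and THBS1 (means of 4.05, 52.9, 8.07 and 133 adjusted reads), and FST was at or near 0 in MDA-MB-468.

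The counts of genes past the threshold were read against the share of all genes tested. In SUM1315 olaparib alone moved 5 of the 10 genes, all lower (INHBA, FST, TGFB2, BAMBI and THBS1), where 9.35% of 13133 genes passed. The genes were chosen with earlier results known, and the OlaR comparison uses the same olaparib-treated libraries. This count and that for CDDP added to olaparib therefore give no independent support. CDDP alone moved 1 (INHBA) where 15.4% passed, which is near the background. CDDP added to olaparib moved 2 (INHBA and BAMBI, 1 to 3 under the alternatives) where 1.32% passed, and olaparib added to CDDP moved 1 (INHBA) where 2.56% passed. The difference between the CDDP changes of OlaR and olaparib-treated parental cells, which had no limit on the fold, was past the threshold for 6.4% of all genes, and the 10 genes were not counted there.

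CDDP in OlaR SUM1315 cells moved 0 of the 10 genes by limma where 3.82% of all genes passed. Of the 10, 4 had an unadjusted p under 0.05, as had 29.5% of all genes. Limma-voom and edgeR on recovered reads also gave 0, whereas a fit of only the groups compared gave 1. These counts include INHBA, from which nothing is read here. In OlaR against olaparib-treated parental SUM1315 cells 16.6% of all genes passed, and the 10 genes were not counted there.

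In MDA-MB-468, where 9 of the 10 genes were tested, olaparib alone moved 1 (THBS1, lower) where 1.74% of 13012 genes passed. CDDP added to olaparib moved 3 (INHBA, TGFB2 and THBS1, all higher) where 1.91% passed. OlaR against olaparib-treated parental cells moved 2 (INHBA and TGFB1, higher) where 14.3% passed, 1 without the filter, 3 by limma-voom or edgeR on recovered reads and 4 with values rescaled by the median ratio. In the test used here TGFB2 (0.99) and THBS1 (0.97) lay just under the limit. The difference between the CDDP changes was past the threshold for 3 (INHBA, TGFB2 and THBS1) where 15% of all genes were. The genes were chosen with earlier results known, so this count and that for OlaR cells give no independent support.

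Counts of 0 were found for CDDP alone (2.59% of all genes passed), for olaparib added to CDDP (0.438%) and for CDDP in OlaR cells (2.39%) in MDA-MB-468. By limma, 5, 1 and 3 of the 9 genes had an unadjusted p under 0.05 in these comparisons, as had 35.2%, 24.4% and 30.2% of all genes. Limma-voom and edgeR on recovered reads gave 0 in each, and leaving out 1 library gave 0 to 1 in the last 2. Between lines, 44.9% of 11755 genes differed in their OlaR change at an adjusted p of at most 0.05 with no limit on the fold. The genes described here were not tested there: INHBA had a difference of -0.33 (SE 0.26) and THBS1 had 1.52 (SE 0.19).

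**Figure D3:**
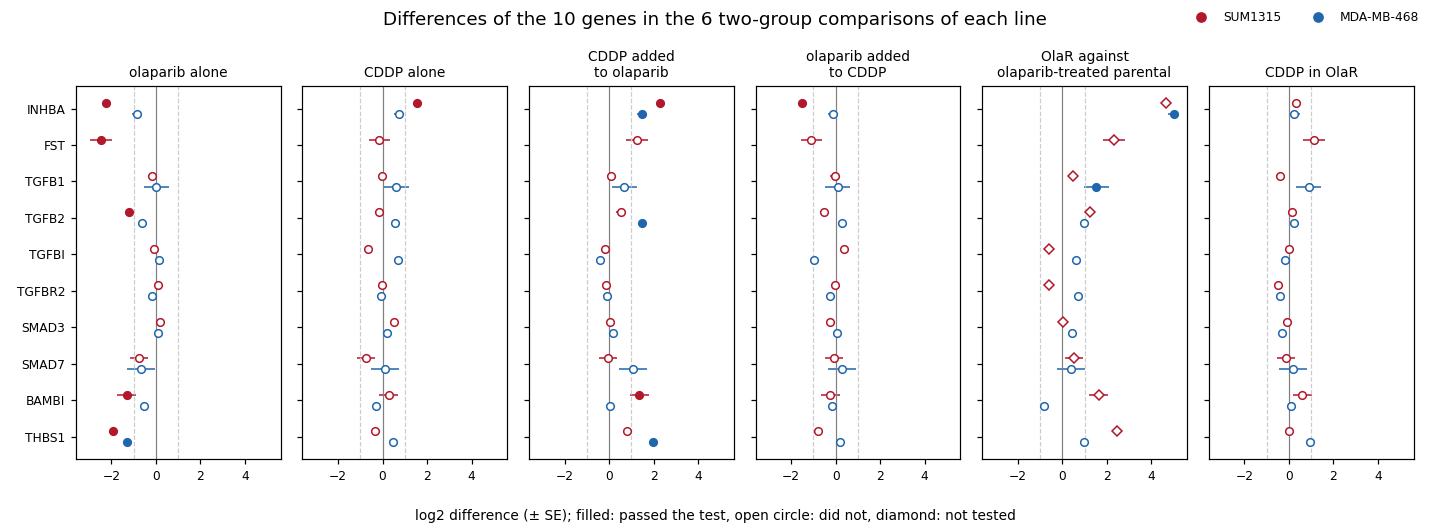
Log2 differences of the 10 genes in 6 comparisons of each line, with bars for the standard error, filled circles for differences past the threshold, open circles for others and diamonds for values not tested, and dashed lines at a 2-fold change. INHBA stands out in the OlaR panel at 4.67 in SUM1315 and 5 in MDA-MB-468. Its open circle for CDDP in OlaR SUM1315 cells is read as a description.

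**Figure D4:**
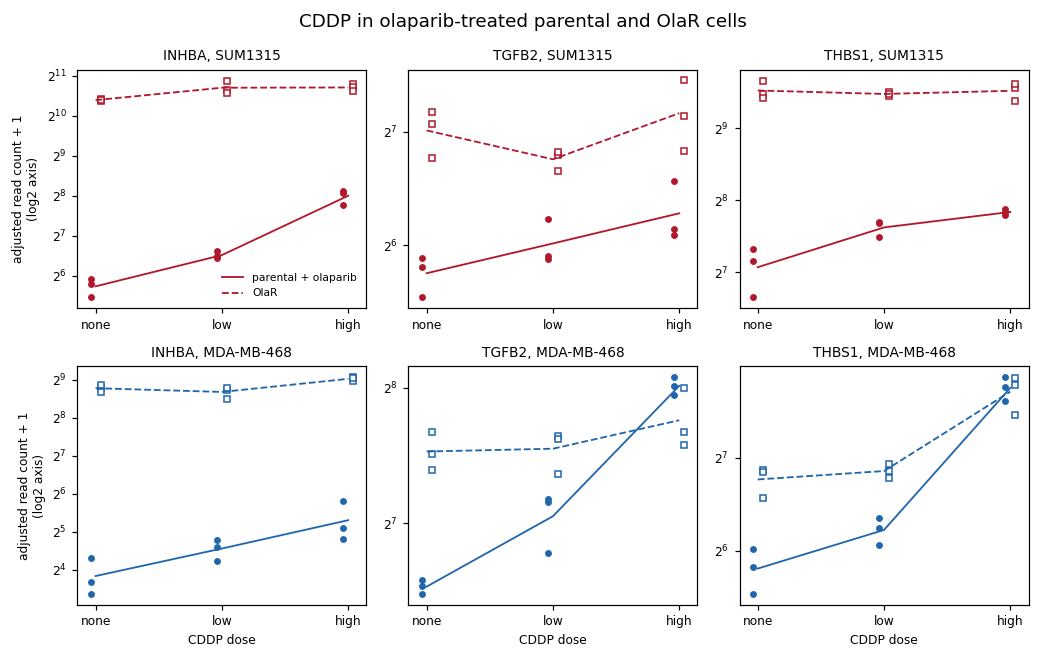
INHBA, TGFB2 and THBS1 against CDDP dose (none, lower, higher) in olaparib-treated parental (solid line) and OlaR (dashed line) cells, as adjusted read count plus 1 on a log2 axis, with 3 libraries (points) per dose. INHBA rose with CDDP in parental SUM1315 cells from a mean of 52.1 to 255 adjusted reads and had 1342 and 1672 in OlaR cells.

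A list of 64 other genes of the pathway, in 7 roles, gives the setting. It too was drawn up with earlier results of these data known. Its shares, and the calls of its genes here and among the flagged results, therefore give no independent support. Of these, 55 were tested in SUM1315 and 53 in MDA-MB-468. Olaparib alone lowered 8 and raised 0 in SUM1315 (14.5% of the list genes tested beside 9.35% of all genes), with a list median of -0.31 on the log2 scale beside 0 for all genes. In MDA-MB-468 it lowered 5 and raised 1 (11.3% beside 1.74%, median -0.2 beside 0.01). CDDP alone raised 1 and lowered 5 in SUM1315, below the share of all genes (10.9% beside 15.4%, median -0.25 beside 0), and raised 2 and lowered 1 in MDA-MB-468 (5.66% beside 2.59%, median -0.01 beside 0.01). CDDP added to olaparib lowered 0. It raised 1 in SUM1315, near the share of all genes (1.82% beside 1.32%, median 0.05 beside -0.01), and 4 in MDA-MB-468 (7.55% beside 1.91%, median 0.16 beside 0). Olaparib added to CDDP lowered 3 in SUM1315 (5.45% beside 2.56%), although the list median was 0.03 beside 0. In MDA-MB-468, where 0.438% of all genes passed, it moved 0 by limma, 0 by limma-voom, 1 by edgeR and 0 to 1 without 1 library. There 6 list genes (11.3%) had an adjusted p of at most 0.05 with no limit on the fold, near the 11.9% of all genes.

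OlaR cells differed from olaparib-treated parental cells in 7 higher and 6 lower list genes in SUM1315 (median 0.12 beside -0.05) and in 8 higher and 5 lower in MDA-MB-468 (median 0.23 beside -0.03). These are 23.6% and 24.5% of the list genes tested, beside 16.6% and 14.3% of all genes, shares that only describe a list chosen with earlier results known. CDDP in OlaR cells moved 0 in SUM1315 by limma, limma-voom or edgeR, and 0 to 1 without 1 library, where 3.82% of all genes passed. With no limit on the fold 14 list genes (25.5%) had an adjusted p of at most 0.05 there, beside 16.7% of all genes. In MDA-MB-468 it raised 2 and lowered 2 (7.55% beside 2.39%), with 2 to 4 called under the alternatives that kept the fold limit. The CDDP changes of OlaR and parental cells differed for 6 list genes in SUM1315 and for 8 of those tested in the other line, and the OlaR changes of both lines differed for 31 of 49. These are 10.9%, 15.1% and 63.3% of the list genes tested, beside 6.4%, 15% and 44.9% of all genes, so the share for the CDDP changes in MDA-MB-468 was that of the background. The difference between CDDP changes was positive for 1 and negative for 5 list genes in SUM1315 (median -0.11 beside 0.01). In MDA-MB-468 it was positive for 1 and negative for 7 (median -0.22 beside -0.02). Between lines 14 were positive and 17 negative (median -0.32 beside -0.02).

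**Figure D5:**
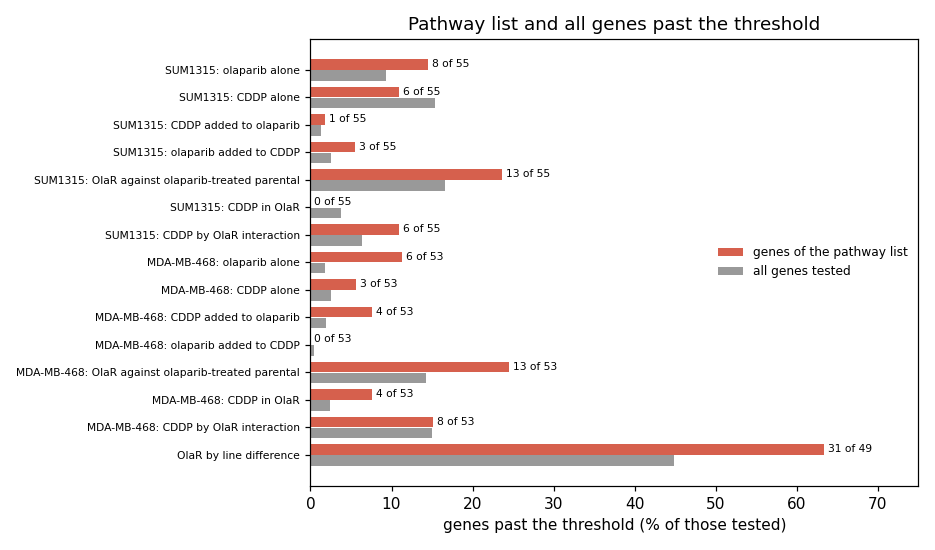
Share of the 64 listed pathway genes (red) and of all genes (grey) past the threshold in each comparison, in % of genes tested, with the number of list genes beside each bar. The list was at 23.6% and all genes at 16.6% in OlaR against olaparib-treated parental SUM1315 cells.

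Among the list's ligands and latent complex genes, INHBB, which encodes the activin B subunit, rose in OlaR MDA-MB-468 cells from a mean of 47.5 to 295 adjusted reads (log2 difference 2.61, SE 0.18, adjusted p = 1.96e-17). INHBE, another activin subunit gene, fell in SUM1315 from 173 untreated to 30.5 with olaparib (-2.47, SE 0.3) and from 30.5 to 4.39 in OlaR cells (-2.55, SE 0.3). LTBP1, which encodes a protein that anchors latent TGF-beta in the matrix, fell from 153 to 65.9 in OlaR MDA-MB-468 cells (-1.19, SE 0.19). LTBP2 fell from 16.7 to 6.86 there (-1.22, SE 0.43), a call lost without olaparib replicate 3 (-1.1) or OlaR replicate 2 (-0.91), and with a pseudocount of 5 (-0.89).

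Of the receptors, TGFBR1, the type I partner of TGFBR2, rose in OlaR SUM1315 cells from 235 to 605 adjusted reads (log2 difference 1.36, SE 0.14, adjusted p = 1.1e-09), while TGFBR2 was lower there. In OlaR MDA-MB-468 cells the co-receptor gene TGFBR3 fell from 51.3 to 16.2 (-1.59, SE 0.27), and the type I receptor gene ACVR1C rose from 5.5 to 19 (1.64, SE 0.57). The ACVR1C call was lost without olaparib replicate 3 (1.45) or OlaR replicate 1 (1.5), and without the filter. Its means were 3.57 to 9.05 in the parental conditions compared and 30 in OlaR cells with the higher CDDP dose. ACVR1C may have passed the filter only through OlaR libraries, so its call is read as a description. The SMAD genes of the list, SMAD2 and SMAD4, gave no call within a line and are named after their values were seen. SMAD2 had 268 in olaparib-treated parental and 475 in OlaR SUM1315 cells, a log2 difference of 0.83 (SE 0.12) under 2-fold. SMAD4, the SMAD that receptor-activated SMADs of both branches join, did not pass the filter in MDA-MB-468.

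The BMP arm is the sister branch with its own ligands and SMADs. In OlaR MDA-MB-468 cells BMP4 fell from 25.6 to 7.69 adjusted reads (log2 difference -1.63, SE 0.32), and SMAD9 rose from 6.3 to 19.4 (1.68, SE 0.49). The receptor gene BMPR1B rose there from 5.08 to 14.1 (1.68, SE 0.61), a call lost without olaparib replicate 1 (0.85) or OlaR replicate 3 (1.37), and with a pseudocount of 5 (1). In the other conditions compared in this line BMPR1B means were 2.1 to 5.08. The gene may have passed the filter only through OlaR libraries without CDDP, so its call is read as a description. SMAD9 may likewise have passed the filter in MDA-MB-468 only through OlaR libraries, and its call is also read as a description. BMPR1A fell in OlaR SUM1315 cells from 28.2 to 12.3 (-1.25, SE 0.45) with overlapping groups, and this call was lost without olaparib replicate 2 (-1.04) or 3 (-1.23), without OlaR replicate 1 (-1.1) or 2 (-0.94), with edgeR (-1.15) and without the filter.

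Of the list's inhibitors, FSTL3, which encodes a follistatin-like antagonist of activin, rose in OlaR SUM1315 cells from 39.7 to 266 adjusted reads (log2 difference 2.76, SE 0.31, adjusted p = 9.06e-09). In MDA-MB-468 it had 16.2 in olaparib-treated parental and 14.5 in OlaR cells, which overlapped, and rose with CDDP alone from 6.65 to 27.8 (1.95, SE 0.36). NEDD4L, which encodes a ubiquitin ligase that acts on SMADs, rose from 163 to 705 in OlaR SUM1315 cells (2.1, SE 0.12, adjusted p = 6.46e-16). PMEPA1, a feedback inhibitor induced by TGF-beta, fell in SUM1315 from 1919 untreated to 697 with olaparib (-1.45, SE 0.09) and to 875 with CDDP (-1.13, SE 0.09). It had 1291 in OlaR cells, a difference of 0.89 from olaparib-treated cells that was under 2-fold. Of the activators of latent TGF-beta, the integrin gene ITGAV fell from 744 to 356 in OlaR SUM1315 cells (-1.06, SE 0.1), and MMP2 rose from 5.03 to 35.6 in OlaR MDA-MB-468 cells (2.61, SE 0.5). MMP2 may have passed the filter in MDA-MB-468 only through OlaR libraries, so its call is read as a description.

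Of the list's target genes, CTGF, also called CCN2 and like THBS1 a matricellular gene, fell with olaparib from a mean of 36.9 to 8.02 adjusted reads in SUM1315 (log2 difference -2.08, SE 0.3) and from 216 to 20.9 in MDA-MB-468 (-3.34, SE 0.19). It rose in OlaR cells to 98.7 (3.49, SE 0.3) and 162 (2.92, SE 0.19). CYR61, also called CCN1, fell with olaparib from 619 to 222 in SUM1315 (-1.35, SE 0.24, -0.99 and no longer called without untreated replicate 2) and from 877 to 280 in MDA-MB-468 (-1.65, SE 0.1). In OlaR SUM1315 cells it rose to 1790 (3.06, SE 0.24), and in OlaR MDA-MB-468 cells it had 295. NEDD9 rose in OlaR cells of both lines, from 3.91 to 35.6 in SUM1315 (3.31, SE 0.6) and from 25.3 to 76.2 in MDA-MB-468 (1.63, SE 0.23). In SUM1315 NEDD9 may have passed the filter only through OlaR libraries, so its call there is read as a description.

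The other targets named here were called in OlaR cells of a single line each. In OlaR SUM1315 cells COL1A1 fell from 508 to 161 adjusted reads (log2 difference -1.67, SE 0.13) and KLF10 fell from 233 to 114 (-1.02, SE 0.18). The KLF10 call was lost without olaparib replicate 1 (-0.88) and without OlaR replicate 2 (-0.93) or 3 (-0.99), with median ratio scaling (-0.97) and with a pseudocount of 5 (-0.99). CDKN2B had a mean of 4.89 in olaparib-treated SUM1315 cells and was at 0 in OlaR cells, so no fold is given, and its call was lost with a pseudocount of 5. In OlaR MDA-MB-468 cells SPHK1 fell from 435 to 102 (-2.09, SE 0.1) and FN1, the fibronectin gene, rose from 17.7 to 53.3 (1.55, SE 0.3).

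Without replicate 3 of the olaparib-treated cells, the OlaR differences of list genes in SUM1315 were -2.61 for INHBE, 1.39 for TGFBR1, 2.77 for FSTL3, 2.16 for NEDD4L, -1.05 for ITGAV, 2.77 for CYR61, 3.41 for CTGF, -1.6 for COL1A1, -1.17 for KLF10 and 2.39 for NEDD9. All of these kept their calls. The olaparib differences without untreated or without olaparib replicate 3 were -2.54 and -2.41 for INHBE, -1.36 and -1.43 for PMEPA1, -1.89 and -1.06 for CYR61, and -2.15 and -2.01 for CTGF. PMEPA1 had -1.03 with CDDP without untreated replicate 3, and these calls were kept as well. The BMPR1A call, as given above, was lost.

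Markers of other cell types and of the mesenchymal state were read beside the OlaR results, in libraries that each came from a culture of a single cell line. Of the 5 fibroblast markers (COL1A1, COL3A1, DCN, LUM and PDGFRB), the summed level in SUM1315 was 605 to 971 adjusted reads in parental and 157 to 247 in OlaR libraries. COL1A1 was the most abundant, COL3A1 had a median of 139 in parental and 1.23 in OlaR libraries, and LUM was at 3.24 or less. PECAM1 had medians of 169 and 71.7, with VWF at 2.05 or less. VIM had 11896 and 8546, ZEB1 399 and 169 and CDH2 533 and 196. The leukocyte markers PTPRC, CD3E and LYZ summed to 6.97 or less. In MDA-MB-468 the fibroblast sum was 22.2 to 51.3 in OlaR and 35.1 to 79.4 in parental libraries, nearly all of it COL1A1, with DCN and LUM at 0. The values are not read as shares of cell types, and their part in the OlaR differences was not tested. In bulk RNA, fewer cells of a line expressing a gene and less RNA of it per cell cannot be told apart.

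The genes whose pattern was most like that of INHBA were taken by Pearson correlation of log2 values over the 27 libraries of a line. In SUM1315, of 10308 genes, they were KRT80 (r = 0.968), IL1B (0.962), PALLD (0.951), JUN (0.948) and DLC1 (0.948). In MDA-MB-468, of 10104 genes, they were KRT23 (0.982), KRT17 (0.981), CAV2 (0.978), IFRD1 (0.971) and PANX2 (0.971). The lists had no gene in common, and the 27 points of a line fall into OlaR and parental groups that differ in depth, so these values only describe.

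Other genes overlap some of the 10 at their loci. INHBA-AS1, on the strand opposite INHBA, had at most 12.8 adjusted reads in SUM1315 and 3.61 in MDA-MB-468. TGFB2-OT1, on the strand of TGFB2 and within its last exon, was at 0 in all libraries. FSIP1 overlaps the last exon of THBS1 on the opposite strand and had 9.36 to 115 in SUM1315 and at most 8.19 in MDA-MB-468. Whether reads were counted by strand is not given in the sources used.

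Promoters of all 10 genes, 300 bases from 250 before to 50 after the start, were taken from RefSeq (GRCh38.p14) and searched on both strands for 5 motifs. GGAATG, the core of TEAD sites, was in 14% of 35116 promoters and in those of TGFB2 (first base 185 before the start) and THBS1 (46 before). TGANTCA, the AP-1 motif, was in 7.71% of all and in FST. The CRE motif TGACGTCA (1.85% of all) and the SMAD palindrome GTCTAGAC (0.202%) were in 0 of the 10. The short SMAD motif CAGAC, in 45.3% of all, was in INHBA, TGFB2, SMAD3, SMAD7, BAMBI and THBS1. The promoters of INHBA (chr7:41703041-41703340, minus strand), TGFB2 (chr1:218345086-218345385, plus), THBS1 (chr15:39580829-39581128, plus) and CCN2 (chr6:131951323-131951622, minus) are shown. INHBA, TGFB2 and THBS1 fell with olaparib in SUM1315 and rose with CDDP added to olaparib in MDA-MB-468, and CCN2 was added as a list gene. This choice was made after their values were seen, and FST and BAMBI, which also fell with olaparib, hold no GGAATG in this window. CCN2 is from the list of other genes, of which 48 had a promoter, and matches in those promoters are not counted here. Capitals mark GGAATG or its reverse complement, of which CCN2 had 3 and INHBA 0. For each gene a single window was searched, and other start sites were not. The INHBA window lies within the gene span given above and not at its outer end. A match is a description and not a binding site.
INHBA: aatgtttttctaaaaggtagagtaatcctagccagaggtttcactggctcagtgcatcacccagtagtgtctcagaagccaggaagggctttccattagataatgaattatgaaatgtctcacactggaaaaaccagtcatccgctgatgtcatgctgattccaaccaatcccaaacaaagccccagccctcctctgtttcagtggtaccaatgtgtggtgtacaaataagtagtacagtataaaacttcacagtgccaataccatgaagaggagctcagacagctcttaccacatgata
TGFB2: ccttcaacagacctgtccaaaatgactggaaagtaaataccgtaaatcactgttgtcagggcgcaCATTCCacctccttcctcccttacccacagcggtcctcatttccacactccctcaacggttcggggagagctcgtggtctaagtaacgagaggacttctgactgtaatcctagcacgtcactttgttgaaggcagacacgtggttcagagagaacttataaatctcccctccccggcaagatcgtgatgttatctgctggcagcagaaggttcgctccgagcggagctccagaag
THBS1: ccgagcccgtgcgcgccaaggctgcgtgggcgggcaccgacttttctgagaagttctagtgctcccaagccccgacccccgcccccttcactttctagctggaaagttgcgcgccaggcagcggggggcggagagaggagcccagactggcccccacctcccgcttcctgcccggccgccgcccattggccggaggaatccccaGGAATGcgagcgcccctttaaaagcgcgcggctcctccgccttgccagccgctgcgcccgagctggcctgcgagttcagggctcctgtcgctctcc
CCN2: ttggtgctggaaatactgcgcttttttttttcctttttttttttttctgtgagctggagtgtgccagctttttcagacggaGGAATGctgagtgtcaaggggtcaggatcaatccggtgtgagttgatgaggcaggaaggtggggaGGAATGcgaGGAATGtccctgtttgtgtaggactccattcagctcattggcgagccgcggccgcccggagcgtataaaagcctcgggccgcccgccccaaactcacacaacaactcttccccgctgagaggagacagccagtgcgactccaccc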

How the data were processed

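The authors deposited adjusted read counts per gene, a signal that is not a raw read count. Per the submitters' processing notes, CASAVA 1.8.2, FastQC, STAR, HTSeq, edgeR and the hg38 genome were used. The values are those of edgeR's quantile adjustment to a common library size of 5585170. Inverting it gave whole reads for 100% of 1483380 values, within a relative tolerance of 1e-06. The table also held 2 repeated row names and 27 names turned into dates. The authors' comparison files hold log2 fold changes, p-values and FDR and were not used.

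Tests used limma 3.58.1 with a trend in R 4.3.3 on log2 of the deposited adjusted values plus 1, per line, on all genes with at least 10 in at least 3 libraries. P-values were adjusted by Benjamini-Hochberg over all genes tested, and a call needed an adjusted p of at most 0.05 and a 2-fold change. Interactions and the difference between lines needed the adjusted p alone. There were 7 comparisons per line and 1 between lines, and CDDP comparisons used the higher dose. The script was tested on simulated data.

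Named genes were the 10 members, list genes called in OlaR against olaparib-treated parental cells of either line or in 3 or more comparisons of a line, the 5 genes per line most correlated with INHBA (mean of at least 50 in some condition) and the markers. A list gene that this rule names is not reported here, though the counts include it. Members and lists were chosen with earlier results of these data known. Alternatives were a pseudocount of 5, no filter, median ratio scaling, a fit of only the groups compared, a replicate block, limma-voom on recovered reads, no limit on the fold, leaving out each library, and correlation over 9 group means. Chosen after seeing the data were a quasi-likelihood test with edgeR 4.0.16 on the recovered reads and the alternatives for list genes. That test called 1185 genes for olaparib alone and 2064 for OlaR against olaparib-treated parental cells in SUM1315, and 286 and 1862 in MDA-MB-468.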

Additional observations from a re-analysis of the deposited data

Results flagged for a closer look

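The results below were flagged because a test of the difference between groups passed at an adjusted p of at most 0.05, and the cause of each difference was not tested. In SUM1315 the CDDP change of OlaR cells minus that of olaparib-treated parental cells was -1.96 for INHBA and -0.8 for THBS1, taken as descriptions only, since the comparison by which the genes were chosen is part of this difference. It was -0.53 for PMEPA1, -0.69 for NEDD4L, 1.2 for SPHK1 and -0.77 for FN1 on the log2 scale. The SPHK1 call was lost without replicate 1 (1.1) or 2 (1.16) of olaparib-treated cells, replicate 3 of olaparib with the higher CDDP dose (0.86), replicate 2 of OlaR cells (1.19) or replicate 2 of OlaR cells with the higher CDDP dose (1.15). In MDA-MB-468 the same difference was -1.21 for INHBA, -1.25 for TGFB2, -1.02 for THBS1, -0.72 for NEDD4L, -0.61 for CYR61, -1.22 for CTGF, -1.53 for NEDD9 and 0.84 for SPHK1. Those of INHBA, TGFB2 and THBS1 give no independent support, since these genes were chosen with earlier results known. The NEDD4L call was lost without replicate 1 of OlaR cells with the higher CDDP dose (-0.6).

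The OlaR change of SUM1315 was above that of MDA-MB-468 by 2.22 for LTBP2, 1.58 for TGFBR1, 1.53 for TGFBR3, 2.02 for BMP4, 3.03 for FSTL3, 0.48 for PMEPA1, 1.49 for NEDD4L, 2.99 for CYR61, 1.67 for NEDD9 and 2.83 for SPHK1 on the log2 scale. It was lower, with differences of -2.15 for INHBE, -2.42 for ACVR1C, -3.18 for BMPR1B, -1.3 for ITGAV, -1.9 for MMP2, -1.06 for COL1A1, -1.94 for KLF10, -3.06 for CDKN2B and -0.79 for FN1. ACVR1C, BMPR1B and MMP2 may have passed the filter in MDA-MB-468 only through OlaR libraries, and NEDD9 likewise in SUM1315. The line differences of these genes are read as descriptions. The value for CDKN2B depends on the pseudocount and is no measured fold, since OlaR SUM1315 cells were at 0. Olaparib doses differed between lines, so line and dose cannot be told apart. Some of these calls were lost without 1 library. For INHBE they were OlaR replicate 1 (-1.79) or olaparib replicate 1 (-1.62) of MDA-MB-468, and for BMPR1B olaparib replicate 1 (-2.35) of that line. For LTBP2 they were olaparib replicate 1 of SUM1315 (2.01) or OlaR replicate 2 of MDA-MB-468 (1.92), and for FN1 olaparib replicate 3 of MDA-MB-468 (-0.65). For NEDD9 they were OlaR replicate 1 (1.43) or olaparib replicate 3 (0.75) of SUM1315, and OlaR replicate 2 (1.56) or olaparib replicates 1 (1.61) or 3 (1.39) of MDA-MB-468. The INHBE call was also lost with limma-voom (-2.23), with edgeR (-2.06) and in a fit of only the groups compared, and the FN1 call with limma-voom (-0.82). The NEDD9 call was also lost with a pseudocount of 5 (0.76), without the filter and in a fit of only the groups compared. Without replicate 3 of olaparib-treated SUM1315 cells, NEDD9 was the only gene in either paragraph whose call was lost.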

How the results depend on the processing

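Of 20 called results of the 10 genes, 17 kept their call under every alternative, and of 290 alternative values 274 were past the threshold and 290 had the same direction. Of 82 called results of named list genes 59 kept it, with 1162 of 1234 values past the threshold and 1234 in the same direction. The calls lost were those of BAMBI in SUM1315 and of TGFB1 in MDA-MB-468, those of list genes given beside their values in the report and among the flagged results, and these: in SUM1315 FSTL3 with olaparib alone and CTGF with CDDP added to olaparib, and in MDA-MB-468 INHBE, BMP4 and FSTL3 with olaparib alone, INHBE with CDDP added to olaparib, and BMP4, BMPR1A and FSTL3 with CDDP in OlaR. The 20 called and 17 kept results of the 10 genes include the INHBA and THBS1 interactions in SUM1315. These are descriptions, so the tally gives no support for them. RNA alone was measured, so activin and TGF-beta proteins, their release and SMAD phosphorylation are not known from these data. Depth limits genes with few reads, such as FST, SMAD7 and TGFB1 in MDA-MB-468. Where a library was left out, the 2 others of its group gave the spread, pooled over groups. Counts that moved over 1.5 times follow, and apart from the fold limit and the filter, whose construction changes the number of genes called or tested, the cause was not tested.

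With no limit on the fold, all genes called in SUM1315 were 4732 for olaparib alone, 5771 for CDDP alone, 1108 for CDDP added to olaparib, 1686 for olaparib added to CDDP, 6203 for OlaR and 2199 for CDDP in OlaR, and list genes 22, 21, 5, 9, 31 and 14. Of the 10 genes 4 were past it for CDDP alone, 3 for olaparib added to CDDP and 1 for CDDP in OlaR. In MDA-MB-468 all genes were 2802, 3269, 3010, 1551, 6702 and 2427 in the same order and list genes 16, 13, 13, 6, 33 and 13. Of the 9 tested genes 4 were past it for olaparib alone, 4 for CDDP alone, 1 for olaparib added to CDDP, 8 for OlaR and 2 for CDDP in OlaR.

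Without the filter SUM1315 had 2116 genes for olaparib alone and 3103 for CDDP alone, and 1 of the 10 genes for CDDP added to olaparib, while MDA-MB-468 had 101 for olaparib added to CDDP and 1 of the 10 genes for OlaR. In a fit of only the groups compared, CDDP added to olaparib in SUM1315 had 0 list genes and 1 of the 10, and CDDP in OlaR 1 of the 10. The replicate block and limma-voom each gave 1 of the 10 for CDDP added to olaparib in SUM1315. Limma-voom also gave 259 genes for CDDP in OlaR in SUM1315, and in MDA-MB-468 97 for olaparib added to CDDP and 174 for CDDP in OlaR, with 2 list genes. In MDA-MB-468 with olaparib added to CDDP, edgeR gave 91 genes and 1 list gene and a pseudocount of 5 gave 36. The median ratio gave 4 of the 10 genes for OlaR in MDA-MB-468. By 9 group means, 3 of the 5 genes most like INHBA were the same in SUM1315 and 2 of 5 in MDA-MB-468.

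Leaving out 1 library in turn (48 fits), the genes called of the 10 in SUM1315 were 1 to 3 for CDDP added to olaparib and 1 to 2 for olaparib added to CDDP, and list genes 0 to 1 for CDDP in OlaR. In MDA-MB-468 they were 1 to 2 for olaparib alone, 0 to 1 for olaparib added to CDDP and 0 to 1 for CDDP in OlaR, with 0 to 1 list genes for olaparib added to CDDP. Replicates share only a number: correlations of residuals between libraries of the same number in different groups were -0.098 to 0.163 in SUM1315 (4 of 108 pairs over 0.1) and -0.047 to 0.043 in MDA-MB-468, and the block changed no other count over 1.5 times.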
